A study of Mus musculus with 4 samples.

Results

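The S100 proteins, annexins, galectins and vimentin encoded by 10 genes (S100a4, S100a6, S100a10, S100a11, Anxa2, Anxa5, Anxa6, Lgals1, Lgals3 and Vim) were followed in splenic CD4+ T cells of mice given a tolerising peptide. The genes were taken by name, with earlier results of these data known, so their shares beside those of all genes are descriptive. All 10 were found among the 47643 Ensembl genes of the count table, and all 10 were among the 9608 genes with at least 10 reads over the 4 libraries that were tested.

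The cells came from mice labelled Tg4 Nr4a3-Tocky IL-10 GFP. In such mice most CD4+ T cells share 1 receptor, specific for a peptide of myelin basic protein. A Timer protein driven by Nr4a3 reports that the receptor has signalled, and EGFP reports Il10. Each mouse received 4 mg/kg of [4Y]-MBP subcutaneously, and the spleen was taken 24 h later. Timer+ cells were sorted into an Il10-EGFP+ and an Il10-EGFP− population, with 2 libraries each from replicate mice, so both populations had received the peptide, both had signalled through their receptor, and no unimmunised cells were included. Age and sex were not given for these mice, nor whether 1 mouse gave both populations. The methods state that a further pair was left out as an outlier, and that pair was not analysed here.

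S100 proteins are small calcium-binding proteins that act as dimers inside the cell, and several of them are also released as alarm signals. Annexins bind acidic phospholipids of the membrane in a calcium-dependent way, and galectins bind β-galactosides on glycoproteins such as CD45 and CD43. Vimentin is the main intermediate filament of lymphocytes and other mesenchymal cells. Transcripts of these families are known to rise together when naive T cells become effector or memory cells, and many of them are also abundant in macrophages and granulocytes.

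The libraries were shallow and of similar size, with 644679 to 730330 counted reads each. The reads were 3′ end reads, so a count follows the number of transcripts and does not scale with gene length. Levels are given as CPM (each count scaled to a common library size) after TMM scaling, with SD over n = 2 libraries. Il10, on which the sort was based, had 0 reads in each Il10-EGFP− library, against 29 and 41 in the Il10-EGFP+ libraries, at least 12.4-fold higher when 3 reads per library are taken as the floor. All 8 CD4 T cell markers on a list (Cd3e, Cd3g, Cd3d, Cd4, Trac, Trbc2, Cd5 and Thy1) were detected in each library. Over all genes tested, 393 genes (4.09%) passed a Benjamini-Hochberg adjusted p of 0.05 in the quasi-likelihood test of edgeR, 226 of them (2.35%) higher and 167 (1.74%) lower in Il10-EGFP+ T cells.

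Of the 10 genes, 3 were higher in Il10-EGFP+ T cells (Vim, Lgals1 and Anxa6), none was lower, and 7 did not pass the test. The 3 genes belong to different families: an intermediate filament, a galectin and an annexin. None of the 4 S100 genes passed. The median log2 fold change of the 10 genes was 0.87, against 0.00 over all genes tested, and 9 of the 10 values were above 0, as were 4804 of the 9608 genes tested. DESeq2's Wald test called 2 of the 8 for which it gave an adjusted p, Vim and Anxa6 (2.1% of all genes with one), and limma on the rlog values called Vim and Lgals1 (2.06% of all genes). For 7 of the 10 genes the lower Il10-EGFP+ library exceeded the higher Il10-EGFP− library, a pattern that 22.3% of all genes tested showed. The reads of the 10 genes together took 0.0782% and 0.0735% of the reads in the Il10-EGFP− libraries, against 0.158% and 0.118% in the Il10-EGFP+ libraries, and most of these reads came from Anxa6 and Vim.

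**Figure D1:**
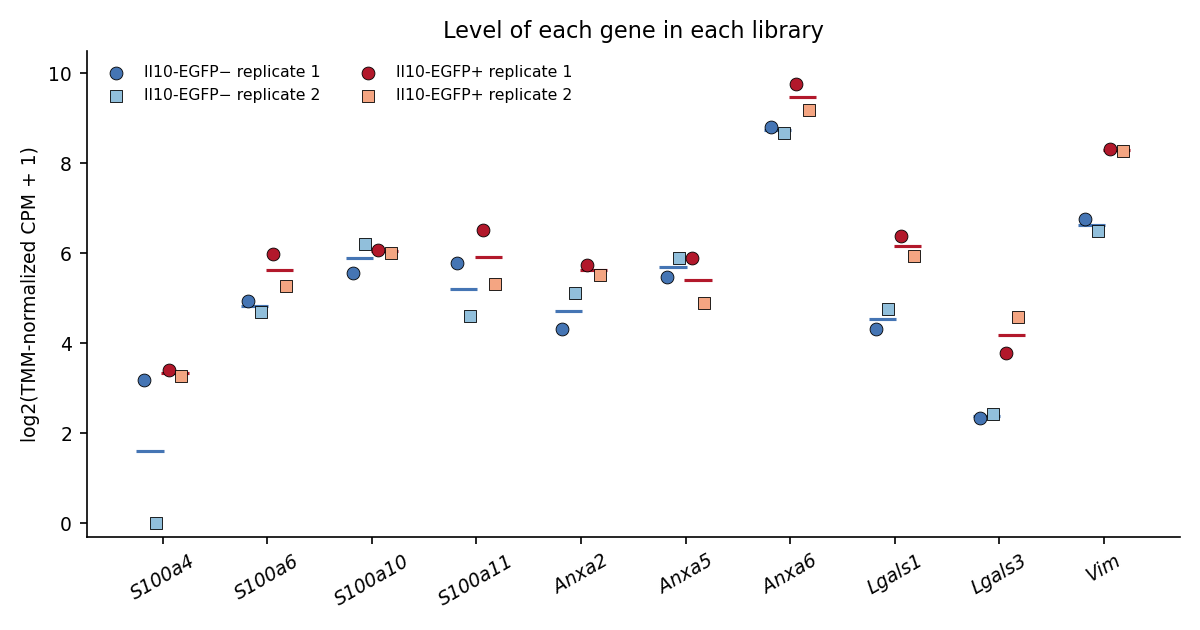
The y axis gives log2(TMM-normalized CPM + 1) and the x axis the 10 genes. Each point is 1 library and each short line the mean of the 2 libraries of a population. Both Il10-EGFP+ points lie clearly above both Il10-EGFP− points for Vim, Lgals1 and Lgals3, while the points of S100a10, S100a11 and Anxa5 overlap.

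The region upstream of the start site is shown for Vim, which had the clearest difference, and for S100a11 and Anxa2, which shared motifs that Vim lacked. The RefSeq promoter table of GRCm38.p6 held an entry for 7 of the 10 genes and none for S100a10, Anxa6 and Lgals1. Each sequence is the 250 bases before the RefSeq start, 5′ to 3′ on the strand of the gene. Capitals mark the 4 motifs searched on both strands: the AP-1 site (TGACTCA, or TGAGTCA on the other strand), the GC box (GGGCGG, or CCGCCC on the other strand), the TATA motif (spelled TATAA, or TTATA on the other strand, which overlap each other in Vim) and the CCAAT motif (CCAAT, or ATTGG on the other strand).
Vim (chr2:13574061-13574310, + strand): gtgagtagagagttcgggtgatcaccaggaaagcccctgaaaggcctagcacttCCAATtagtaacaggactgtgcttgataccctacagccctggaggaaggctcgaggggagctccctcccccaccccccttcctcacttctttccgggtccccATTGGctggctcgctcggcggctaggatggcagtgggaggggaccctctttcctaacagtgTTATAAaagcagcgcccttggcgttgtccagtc
S100a11 (chr3:93520246-93520495, + strand): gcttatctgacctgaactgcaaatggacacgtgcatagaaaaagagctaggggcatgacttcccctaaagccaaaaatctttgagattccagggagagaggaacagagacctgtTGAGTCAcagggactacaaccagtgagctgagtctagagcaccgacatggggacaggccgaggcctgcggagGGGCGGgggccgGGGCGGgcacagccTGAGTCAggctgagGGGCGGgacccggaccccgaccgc
Anxa2 (chr9:69453433-69453682, + strand): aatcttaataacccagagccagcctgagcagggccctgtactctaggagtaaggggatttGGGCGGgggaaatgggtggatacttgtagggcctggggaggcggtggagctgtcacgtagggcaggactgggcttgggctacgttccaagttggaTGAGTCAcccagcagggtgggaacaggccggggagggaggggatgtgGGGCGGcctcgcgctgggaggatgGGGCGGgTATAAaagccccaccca

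The AP-1 letters were present in 2 of the 7 promoters, those of S100a11 and Anxa2, and in 4.46% of all 32851 promoters of the same length. S100a11 held the site 136 and 38 bases before the start, and Anxa2 held it 95 bases before the start. Both also held 3 GC boxes, a motif present in 32.7% of all promoters, and Lgals3 held 1. The TATA motif lay 31 bases before the start in S100a4, 32 bases before it in Vim and 17 in Anxa2, and 22.8% of all promoters held it. The CCAAT motif, in either orientation, was in 3 of the 7 promoters (Vim, S100a6 and Lgals3) and in 33.8% of all promoters. Vim held it once in each orientation. These matches describe the letters only, and no binding was measured.

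Vim (ENSMUSG00000026728; chromosome 2 of GRCm38, 13573927 to 13582826), the intermediate filament gene, had 79 and 61 reads in the Il10-EGFP− libraries, against 202 and 214 in the Il10-EGFP+ libraries. The populations were far apart and the 2 libraries of each lay close together. In CPM, Vim rose from 98.1 ± 12.9 to 314.4 ± 8.02 (SD, n = 2 each), a log2 fold change of 1.67 (standard error 0.18, 95% interval 1.31 to 2.04, adjusted p = 4.0e-09, edgeR). The mean rlog value, a log2 value that draws low counts toward the mean of the gene, was 0.93 higher. Vim was called in each of the 15 alternative analyses, with log2 fold changes between 1.55 and 1.82 when each library was left out in turn.

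Lgals1 (ENSMUSG00000068220; chromosome 15, 78926725 to 78930465) encodes galectin-1, a galectin that T cells make on activation and that can restrain effector T cells. It had 14 and 18 reads in the Il10-EGFP− libraries, against 52 and 42 in the Il10-EGFP+ libraries, with no overlap. In CPM it was 22.6 ± 5.13 against 71.5 ± 15.4 (SD, n = 2 each), a log2 fold change of 1.65 (standard error 0.34, 95% interval 0.97 to 2.33, adjusted p = 0.000970, edgeR). The adjusted p was 0.0559 with DESeq2's Wald test and 0.0433 with limma on the rlog values. Lgals1 thus had nearly the fold of Vim at a lower level and with a wider interval. Its log2 fold change lay between 1.42 and 1.90 with each library left out.

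Lgals3 (ENSMUSG00000050335; chromosome 14, 47367751 to 47386160) encodes galectin-3, which is abundant in macrophages. It had 3 reads in each Il10-EGFP− library, against 8 and 16 in the Il10-EGFP+ libraries. The ratio of its reads, scaled by library size, was 4.30 with an exact 95% interval of 1.71 to 12.8, which covers counting error only. The fitted log2 fold change of 2.05 (standard error 0.71) was the largest of the 10, but its adjusted p of 0.0946 (edgeR) did not pass the threshold. The populations did not overlap, and at 24 and 6 reads in all the size of the difference was poorly fixed.

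The other galectins gave no call. Lgals9, whose product binds TIM-3, was the most abundant galectin transcript of the list, with 109 and 117 reads in the Il10-EGFP− libraries, against 116 and 128 in the Il10-EGFP+ libraries. The fitted log2 difference was 0.21 (95% interval -0.15 to 0.58, adjusted p = 0.655, edgeR), so a change of the size seen for Lgals1 lay outside its interval. Of the 9 galectins listed, 8 were matched to an identifier and 5 were tested. Lgals1 was the 1 called, and the median log2 fold change of the 5 was 0.57.

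Anxa6 (ENSMUSG00000018340; chromosome 11, 54979108 to 55033445) encodes annexin A6, an annexin with a doubled core that takes part in membrane and cholesterol traffic. It had by far the most reads of the 10 genes, 327 and 277 in the Il10-EGFP− libraries, against 544 and 400 in the Il10-EGFP+ libraries, and stood at rank 205 of the 9608 genes by mean CPM. The level rose from 424.0 ± 28.1 to 719.5 ± 201.5 CPM (SD, n = 2 each), a log2 fold change of 0.76 (standard error 0.15, 95% interval 0.46 to 1.06, adjusted p = 0.000523, edgeR). The populations did not overlap, but the Il10-EGFP+ libraries differed from each other by more than the Il10-EGFP− libraries did. The call rested on Il10-EGFP+ replicate 1, without which the value was 0.45 with an adjusted p of 0.204, and leaving out the other Il10-EGFP+ library gave 1.02. DESeq2's Wald test called Anxa6 (adjusted p = 0.0128), and limma on the rlog values did not (adjusted p = 0.108).

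Anxa2 (ENSMUSG00000032231; chromosome 9, 69453620 to 69491795) and S100a10 (ENSMUSG00000041959; chromosome 3, 93555080 to 93564643) encode the 2 partners of a membrane complex, annexin A2 and p11. Anxa2 had 14 and 23 reads in the Il10-EGFP− libraries, against 33 and 31 in the Il10-EGFP+ libraries, with no overlap. Its log2 fold change of 0.89 (95% interval 0.16 to 1.61) had an adjusted p of 0.184 (edgeR). S100a10 had 34 and 50 reads against 42 and 44, and both Il10-EGFP+ libraries lay between the Il10-EGFP− libraries. Its log2 fold change was 0.13 (95% interval -0.43 to 0.70, adjusted p = 0.905, edgeR), an interval that leaves out a doubling. The intervals of the partners overlapped. Anxa2 overlaps the antisense gene Gm16144 over 98 exonic bases, and Gm16144 had 0 reads in each library.

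Anxa5 (ENSMUSG00000027712; chromosome 3, 36448923 to 36475894) encodes annexin A5, the phosphatidylserine-binding protein used to stain dying cells. It had 32 and 40 reads in the Il10-EGFP− libraries, against 37 and 20 in the Il10-EGFP+ libraries, and it was the 1 gene of the 10 with a fitted value below 0, at -0.23 (95% interval -0.89 to 0.43, adjusted p = 0.831, edgeR). The value turned to 0.21 without Il10-EGFP+ replicate 2. Anxa5 and Anxa6, both annexins, had intervals that did not overlap, though the difference between them was not tested.

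Among the 12 annexins listed, 6 were tested and 2 were called, Anxa6 and Anxa3, with a median log2 fold change of 0.28. Anxa3, a transcript best known from neutrophils and endothelial cells, had 0 and 5 reads in the Il10-EGFP− libraries, against 19 and 11 in the Il10-EGFP+ libraries (log2 fold change 2.63, adjusted p = 0.0249, edgeR). Its fitted value ranged from 1.62 to 6.98 with each library left out, the highest against 1 library at 0 reads, and the call was lost without Il10-EGFP− replicate 1 or Il10-EGFP+ replicate 1 (adjusted p = 0.297 and 0.338). Anxa7 and Anxa4 had log2 fold changes of -0.20 and -0.86 (adjusted p = 0.906 and 0.730, edgeR). Anxa1 had 1 read in 1 library and 0 in the others.

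**Figure D2:**
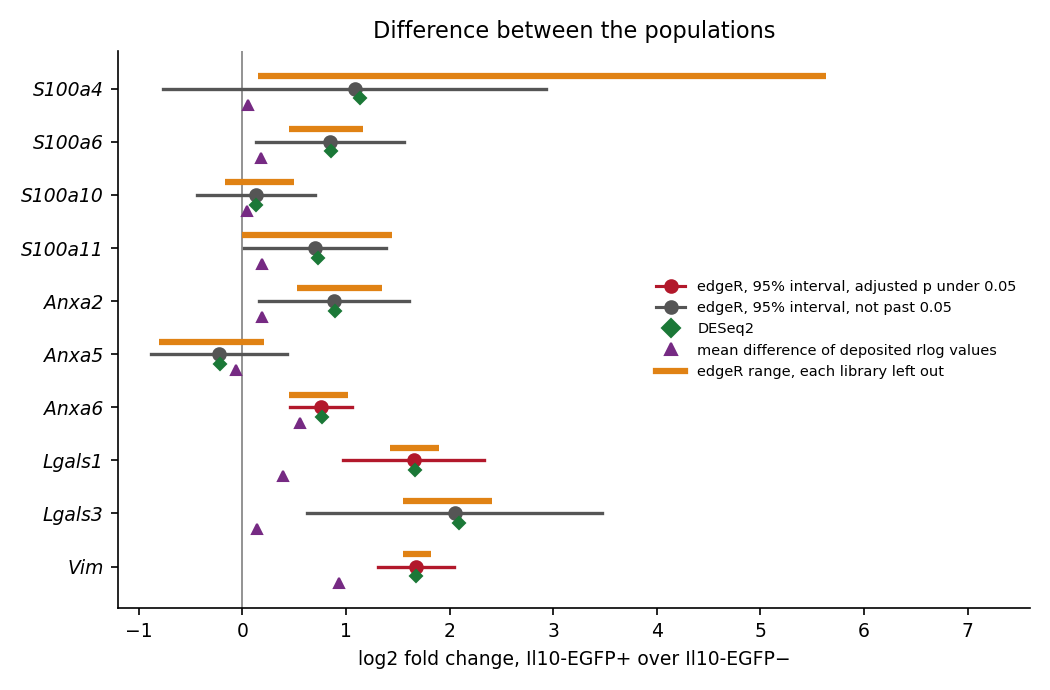
The x axis gives the log2 fold change of Il10-EGFP+ over Il10-EGFP− T cells for each of the 10 genes. Circles and thin lines are edgeR values with 95% intervals, diamonds DESeq2 values, triangles mean differences of rlog values, and thick bars the range of edgeR values with each library left out. Vim has the narrowest interval away from 0 among the genes above 1, and the bar of S100a4 runs to 5.63 because 1 Il10-EGFP− library held 0 reads.

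S100a6 (ENSMUSG00000001025; chromosome 3, 90612882 to 90624181) encodes calcyclin, a protein linked to proliferating cells. It had 22 and 17 reads in the Il10-EGFP− libraries, against 39 and 26 in the Il10-EGFP+ libraries. The populations did not overlap, and the log2 fold change was 0.84 (95% interval 0.13 to 1.56, adjusted p = 0.210, edgeR). Without Il10-EGFP+ replicate 1 the value was 0.45.

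S100a11 (ENSMUSG00000027907; chromosome 3, 93520488 to 93526287) encodes calgizzarin, which can bind annexins. It had 40 and 16 reads in the Il10-EGFP− libraries, against 57 and 27 in the Il10-EGFP+ libraries, so replicate 1 was the higher library in both populations and the populations overlapped. The log2 fold change was 0.70 (95% interval 0.02 to 1.39, adjusted p = 0.304, edgeR). It was called without Il10-EGFP− replicate 1 (1.45, adjusted p = 0.0382) and without Il10-EGFP+ replicate 2 (1.20, adjusted p = 0.0371), and was -0.0048 without Il10-EGFP+ replicate 1. The last 500 bases of its transcripts share up to 190 of 451 sequences of 50 bases with 3 other genes (Gm12854, Gm7665 and Gm29240), each with 0 reads in each library, so reads that matched several places could have gone uncounted.

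S100a4 (ENSMUSG00000001020; chromosome 3, 90603771 to 90606045) encodes a metastasis-associated S100 protein that binds non-muscle myosin and marks memory T cells. It had 6 and 0 reads in the Il10-EGFP− libraries, against 6 and 6 in the Il10-EGFP+ libraries, the fewest of the 10 genes. The ratio of its reads was 2.15 with an exact 95% interval of 0.746 to 6.97, so no difference was detectable at this depth. S100a4 shares 302 exonic bases on the same strand with Gm42674, which had 0 reads in each library, and reads in the shared part can be left out when a counter finds 2 genes. Its low level is therefore uncertain.

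The S100 genes lie mostly on chromosome 3, where 13 of the 16 listed genes form 2 blocks, from 90511034 to 90695721 and from 93520488 to 93564643, with a gap of 2824767 bases between them. In the first block S100a4 and S100a6 stand on either side of S100a5, which had 0 reads in each library. S100a10 and S100a11 are the 2 genes of the second block. Of the 13 genes, 4 had 0 reads in each library, 2 had at most 3 reads in any library, and 7 had more. Genes at 0 thus stood directly beside detected genes.

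**Figure D3:**
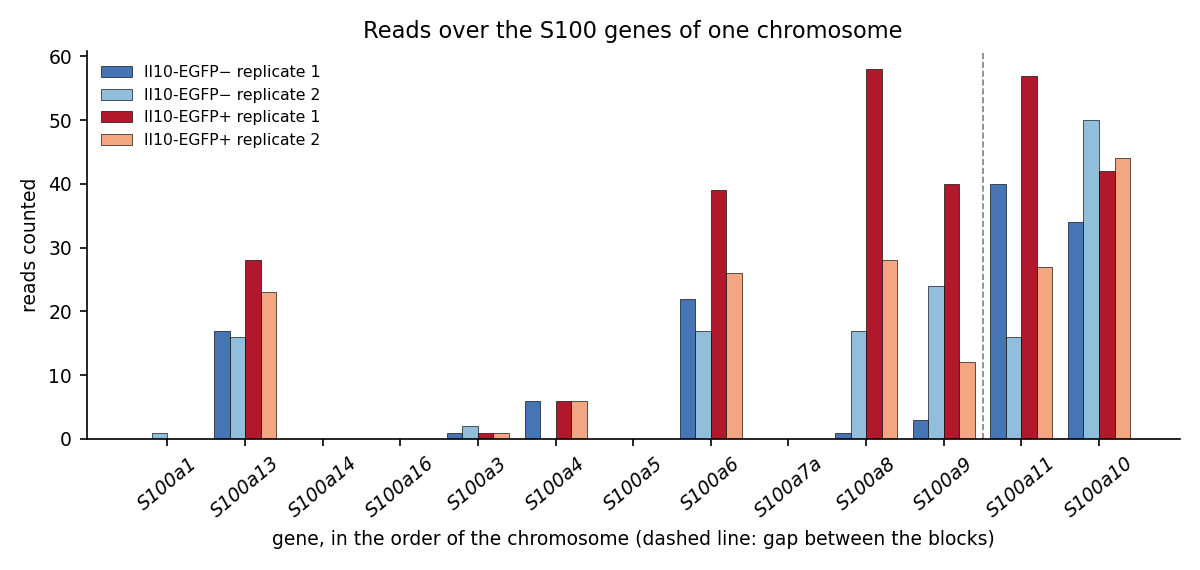
The y axis gives reads counted per library (bars from 0) and the x axis the 13 S100 genes of the chromosome in order. For S100a6, S100a8 and S100a13 each Il10-EGFP+ bar exceeds each Il10-EGFP− bar. S100a8, S100a9 and S100a11 differ within a population, with S100a8 at 1 and 17 reads in the Il10-EGFP− libraries but 58 and 28 in the Il10-EGFP+ libraries.

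Over the whole S100 list 7 genes were tested, and their median log2 fold change was 0.84. S100a8 alone was called. S100a8 and S100a9 encode the calprotectin subunits of neutrophils and monocytes. The log2 difference of S100a8 was 2.35 (edgeR adjusted p = 0.000582, or 0.804 with DESeq2). It ranged from 1.39 to 5.42 with each library left out, and without Il10-EGFP+ replicate 1 the call was lost (1.65, adjusted p = 0.0762). S100a9 had 3 and 24 reads against 40 and 12, which overlapped (log2 fold change 1.05, adjusted p = 0.279, edgeR). S100a13, a neighbour of S100a14 in the first block, had 17 and 16 reads against 28 and 23 (log2 fold change 0.73, adjusted p = 0.370, edgeR).

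Several of the 10 genes are also expressed by myeloid cells, so the markers of other cells are given beside them. The 10 myeloid markers on a list (Lyz2, S100a8, S100a9, Csf1r, Itgam, Cst3, Fcer1g, Tyrobp, Cd68 and Adgre1) summed to 111.3 and 138.6 CPM in Il10-EGFP− and to 385.0 and 200.5 CPM in Il10-EGFP+ T cells. Of the 9 tested, 2 were called higher (S100a8 and Lyz2). The fitted value was above 0 for 8 of the 9, all but Itgam (-0.02). Their median log2 fold change was 1.06, against 0.87 for the 10 genes followed here. For 5 of the 9 the populations did not overlap, with Il10-EGFP+ the higher, and for 0 with Il10-EGFP+ the lower. Adgre1, which encodes the macrophage marker F4/80, was not tested and had 0 reads in each library. Il10-EGFP+ replicate 1 held the most myeloid reads and also the highest CPM of 8 of the 10 genes, all but S100a10 and Lgals3. Without that library, Vim and Lgals1 had log2 fold changes of 1.65 and 1.42 and were called, while Anxa6 was not (0.45, adjusted p = 0.204). S100a8 and Lyz2 also lost their calls without it (adjusted p = 0.0762 and 0.778). Lyz2 was called in 1 of the 4 fits with a library left out and had an adjusted p of 0.415 with DESeq2. The part of myeloid RNA in these values was not tested, and in sorted bulk cells a different share of cells and a different amount of RNA per cell cannot be told apart.

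The 10 B cell markers summed to 150.7 and 243.7 CPM in Il10-EGFP− and to 589.4 and 603.0 CPM in Il10-EGFP+ T cells, with 4 of 8 tested genes called higher (Jchain, Igkc, H2-Aa and Ighm). Their defining members Cd79a and Cd79b had at most 4 reads in any library. Of the 7 stromal and endothelial markers, Dcn, Pdgfrb and Cdh5 had 0 reads in each library, and the list summed to between 11.7 and 31.7 CPM. None of the 3 tested CD8 and NK markers, the 3 Treg markers or the 2 tested erythroid genes was called. Among the CD4 T cell markers 1 of 8, Trac, was called (log2 fold change 0.59, adjusted p = 0.00449, edgeR).

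Of the 3 tested intermediate filament genes, Vim was higher and Lmnb2 was lower. Lmnb2, which encodes lamin B2 of the nuclear envelope, had 95 and 83 reads in the Il10-EGFP− libraries, against 46 and 46 in the Il10-EGFP+ libraries (log2 fold change -0.85, edgeR adjusted p = 0.0208, or 0.285 with DESeq2). With any 1 library left out, the adjusted p of Lmnb2 was 0.0576 to 0.150. Lmnb1, which encodes lamin B1, had 438 and 428 reads against 430 and 498 (log2 fold change 0.20, adjusted p = 0.514, edgeR). Vim was thus the only intermediate filament gene of the list that was called higher. Lmna had at most 1 read in any library. Over the 4 family lists together, 21 of 45 genes were tested, of which 5 were called higher and 1 lower.

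Partners and ligands of these proteins gave no call among 10 tested genes, with a median log2 fold change of 0.36. Myh9, the heavy chain of non-muscle myosin that S100A4 binds, had 427 and 413 reads in the Il10-EGFP− libraries, against 496 and 527 in the Il10-EGFP+ libraries (log2 fold change 0.39, adjusted p = 0.0845, edgeR). Cacybp, the calcyclin-binding protein, had 212 and 202 reads against 152 and 163 (log2 fold change -0.29, adjusted p = 0.394, edgeR). The galectin ligands Ptprc (CD45) and Spn (CD43) had log2 fold changes of 0.11 and 0.25 (adjusted p = 0.762 and 0.502, edgeR). Ahnak, the large scaffold that binds the complex of annexin A2 and p11, had between 2 and 8 reads per library, too few to show a change.

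Among 17 genes of the actin cytoskeleton, 4 were higher and none was lower in the Il10-EGFP+ population (median log2 fold change 0.32). The 4 were Flna, which encodes the actin cross-linker filamin A and had the largest value (1.25, adjusted p = 0.000297, edgeR), Coro1a (0.52), Arpc1b (0.51) and Cotl1 (0.45). Flna had 44 and 42 reads in the Il10-EGFP− libraries, against 106 and 84 in the Il10-EGFP+ libraries, and it kept its call with any 1 library left out, while Coro1a, Arpc1b and Cotl1 did not. The abundant transcripts Actb and Tmsb4x had log2 fold changes of 0.28 and 0.33 (adjusted p = 0.167 and 0.103, edgeR).

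Of 16 tested transcripts of the effector and memory state, 4 were higher and none was lower, with a median log2 fold change of 0.62. The fitted value was above 0 for 15 of the 16, and for 11 of them the populations did not overlap, with Il10-EGFP+ the higher (22.3% of all genes). Among the genes called were the chemokine receptor gene Ccr2 (2.32), Gzmb, which encodes granzyme B (1.59), and Id2 (1.48), all as log2 fold changes. With any 1 library left out Ccr2 lost its call, while Gzmb and Id2 kept theirs. Ccr2 had 3 reads in each Il10-EGFP− library, against 11 and 18 in the Il10-EGFP+ libraries. Cd44, a standard mark of antigen-experienced T cells, and Crip1 had values of 0.0059 and 0.32 (adjusted p = 0.996 and 0.634, edgeR).

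Of 10 genes of the naive state, 3 were lower (Bach2 at -1.13, Ccr7 at -0.84 and Tcf7 at -0.60 in log2 fold change) and 2 were higher (Il7r at 1.53 and Klf2 at 1.07). Tcf7, Klf2 and Il7r were not called with DESeq2 (adjusted p = 0.157, 0.152 and 0.0614). With a library left out, Tcf7 lost its call without Il10-EGFP− replicate 1 (adjusted p = 0.0963) or Il10-EGFP+ replicate 2 (0.268), Ccr7 without Il10-EGFP+ replicate 2 (0.0503) and Klf2 without Il10-EGFP+ replicate 1 (0.70, adjusted p = 0.294). The median was -0.06. Il7r and Klf2 therefore went the same way as Vim and Lgals1, and Bach2, Ccr7 and Tcf7 the opposite way. Of 10 mitotic genes, 8 were higher, among them Ccnb2 (1.71), Mki67 (1.61), Aurka (1.52), Cenpf (1.51), Ube2c (1.41) and Tpx2 (1.24). Of these named genes, Aurka alone was not called with DESeq2 (adjusted p = 0.159). The summed level of the 10 mitotic genes was 2426 and 2358 CPM in Il10-EGFP− and 4723 and 4583 CPM in Il10-EGFP+ T cells. Its part in the levels of Vim, Lgals1 or S100a6 was not tested.

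**Figure D4:**
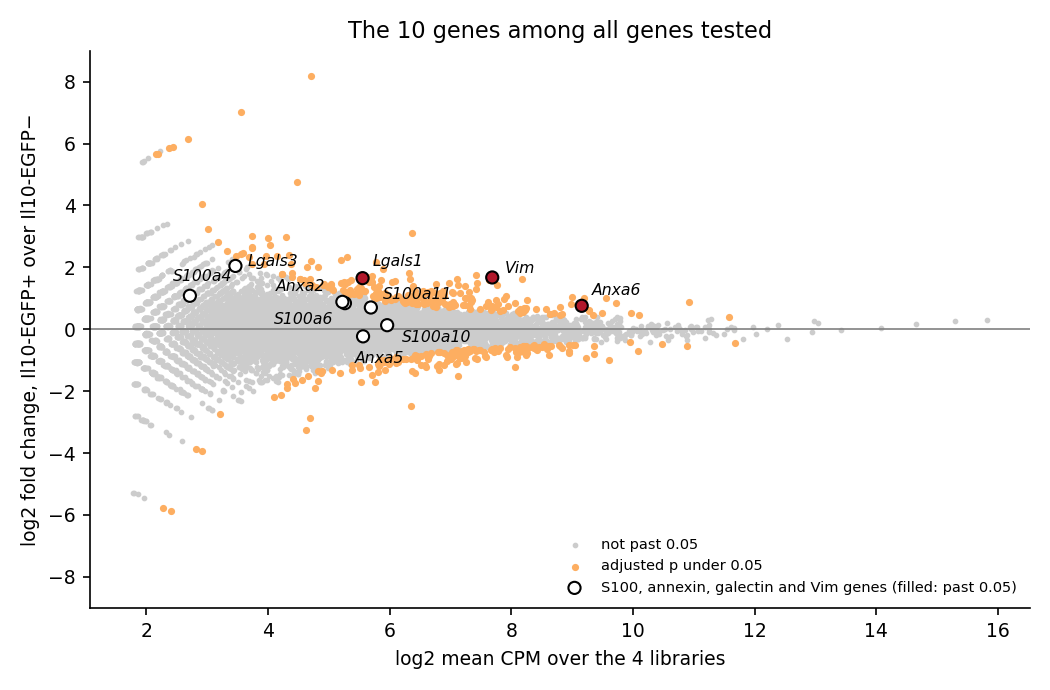
The x axis gives log2 mean CPM over the 4 libraries and the y axis the log2 fold change of Il10-EGFP+ over Il10-EGFP− T cells. Each small point is 1 of 9608 genes, orange where the adjusted p was under 0.05, and the 10 genes are ringed and named. Vim, Lgals1 and Anxa6 are filled, and Lgals3 and S100a4 sit at the left, where values scatter widely.

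The mean profile of the 10 genes over the libraries, in log2 CPM centred on each gene's mean, was -0.36 and -0.51 in the Il10-EGFP− libraries, against 0.61 and 0.26 in the Il10-EGFP+ libraries. Among 3486 other genes with a mean of at least 50 CPM, the 5 with the smallest root mean square difference from it were Shcbp1 (0.026), Frmd4b (0.034), Me2 (0.045), Kif20a (0.048) and Meaf6 (0.053). With 4 libraries this is a description of likeness alone. Frmd4b, Me2 and Kif20a were called higher (log2 fold changes of 0.86, 0.97 and 0.90), a direction that follows from how they were picked.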

How the data were processed

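Messenger RNA of 4 libraries was measured, 2 per population. The authors deposited unnormalised read counts for each Ensembl gene. They came from the BlueBee pipeline for QuantSeq FWD libraries on GRCm38, and the submitters' processing notes name STAR 2.5.2a and HTSeq 0.6.0. The deposited rlog values, on a log2 scale, were derived from the same counts in DESeq2. Per the methods, unique molecular identifiers served to assess PCR duplicates and remove amplification bias. Annotation release and strand option are not given in the sources used here. For the RNA extraction the methods and the labels name different kits.

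The test was edgeR 4.0.16 in R 4.3.3 (TMM factors, glmQLFit and glmQLFTest with default settings), on genes whose counts summed to 10 or more, with Benjamini-Hochberg adjustment over all genes tested and a threshold of 0.05. Each standard error is the log2 fold change divided by the square root of F. DESeq2 1.42.0, limma 3.58.1, other filters and scalings, a replicate block and leaving out each library served as alternatives. The fit was tested on simulated counts. Exact intervals (Clopper-Pearson, 95%) cover counting error only. Symbols were matched for 47224 of 47643 identifiers. Positions and transcript ends came from GENCODE M21, promoters from RefSeq.

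The 10 genes and the lists were chosen with earlier results of these data known. Named genes are the 10 genes, Il10, up to 6 called genes per list with the largest changes, and the 5 genes most like the mean profile; other list genes were named after their values were seen. The numbers of the replicates were checked for pairing over 6781 genes (mean of 10 counts or more), where deviations correlated at 0.018. Libraries of a population differed by more than sampling noise (chi-square per degree of freedom 2.15 and 1.97). Some list genes are not reported here.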

Additional observations from a re-analysis of the deposited data

How the results depend on the processing

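The count of genes called (393) fell to 197 when the rlog values were tested with limma, to 112 under DESeq2, to 39 in DESeq2 with a replicate block, and to 8 when edgeR used bias-adjusted deviances without a count filter, an alternative chosen after seeing the data. It ran from 201 to 264 with each library left out, where the lone library is assumed to vary like the others. In that bias-adjusted fit 1 of the 10 genes (Vim) was called, against 3, and 1 gene of the 4 family lists, against 6. The family lists gave 2 calls with DESeq2, 2 with its replicate block, 3 with limma on the rlog values, and 2 to 7 with each library left out (2 without Il10-EGFP+ replicate 1). Between 2 and 4 of the 10 genes were called with each library left out. What caused these differences was not tested. S100a4 and Lgals3 had no adjusted p in DESeq2.

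The median log2 fold change of the 10 genes was 0.18 with rlog values, which draw low counts toward the mean, and 0.61 to 1.21 with each library left out. Of 140 values of the 10 genes under the alternatives, 3 changed sign. With each library left out, S100a10 ran from -0.17 (without Il10-EGFP− replicate 1) to 0.49, S100a11 from -0.0048 (without Il10-EGFP+ replicate 1) to 1.45, and Anxa5 from -0.81 to 0.21 (without Il10-EGFP+ replicate 2). Lgals1 lost its call with DESeq2 and in the bias-adjusted fit without filter (adjusted p = 0.168), and Anxa6 with limma on the rlog values, in that bias-adjusted fit (adjusted p = 0.255) and without Il10-EGFP+ replicate 1.

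The populations share replicate numbers, but same-numbered libraries did not deviate together, so pairing by number was not shown. The edgeR replicate block called 560 genes, 3 of the 10 genes and 6 family genes, with a median log2 fold change of the 10 genes of 0.87. The DESeq2 block called 2 of the 4 of the 10 genes for which it gave an adjusted p, with a median of 0.88. Genes with few reads, such as S100a4 and Lgals3, are limited by depth.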
